A study of Rattus norvegicus with 9 samples.

Results

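The mRNA of 10 genes of NF-kappaB signaling and of the inhibitor of apoptosis protein (IAP) family was followed across rat bladder tumors, adjacent normal tissues (ANTs) and normal bladder. The genes are the receptor gene Tnfrsf1a, the subunit genes Nfkb1, Nfkb2, Rela and Relb, the feedback genes Nfkbia and Tnfaip3, and the IAP genes Birc2, Birc3 and Xiap. They were chosen by name, with earlier results of these data known, so counts among them are a description only. Every probe set that the array annotation assigns to 1 of them alone was taken. That gave 11 probe sets of 31042 tested, for 10 of 14217 genes. Xiap has 2 probe sets and the other genes have 1 each. All 10 genes were measured, and no filter removed any of them.

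The 9 arrays hold 3 tumors and 3 ANTs, taken as pairs from 3 Sprague-Dawley (SD) rats with bladder transitional cell carcinoma, and the bladders of 3 other, normal SD rats. The tumors arose in a model in which the alkylating carcinogen N-methyl-N-nitrosourea (MNU) is given into the bladder, 20 mg/ml weekly over 10 weeks by the labels. The labels give that same treatment, female sex and an age of 10 weeks for all 9 samples, normal bladders included, so the labels do not separate the handling of the normal rats from that of the others. Values are log2 signals of the MAS5 algorithm, and a difference of 1 on that scale is a doubling of signal. Signals under 50 (log2 5.64) were called dim.

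NF-kappaB is a family of dimeric transcription factors that are held in the cytoplasm by inhibitor proteins such as the product of Nfkbia. Signals from receptors, among them the tumor necrosis factor receptor encoded by Tnfrsf1a, lead to destruction of the inhibitor and let the dimers reach the nucleus. The Rela and Nfkb1 products form the dimer of the classical pathway, and the Relb and Nfkb2 products that of the alternative pathway. Among the genes that NF-kappaB switches on are its own brakes, Nfkbia and Tnfaip3, and Birc3. The Birc2 and Birc3 products are ubiquitin ligases of the receptor complex, and the Xiap product binds and inhibits caspases. In the bladder the pathway is known for the response of the urothelium and of infiltrating white blood cells to infection, injury and instilled agents.

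The promoter sequences of Nfkb2, Nfkbia, Tnfaip3 and Nfkb1 are shown because these subunit and feedback genes carry letters that match the kappaB site that the proteins of the family bind. Promoters of 300 bases, 250 before and 50 from the transcription start onward, were taken from RefSeq (GRCr8), and 7 of the 10 genes had one. No entry was found for Relb, Birc3 and Xiap. The kappaB consensus decamer was searched on both strands, and it was present in 4 of these 7 promoters and in 7.51% of all 33469 promoters of the table. Capitals mark the decamers, and each sequence is read 5′ to 3′ along the strand of the gene. The 3 longer stretches are the 120 bases directly upstream of the start, and that of Nfkb1 is 30 bases around a decamer at bases 4 to 13 of the transcript.
Nfkb2, chr1:255108254-255108373, plus strand: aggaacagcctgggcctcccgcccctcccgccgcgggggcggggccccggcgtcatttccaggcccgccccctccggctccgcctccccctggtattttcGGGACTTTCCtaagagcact
Nfkbia, chr6:78597073-78597192, minus strand: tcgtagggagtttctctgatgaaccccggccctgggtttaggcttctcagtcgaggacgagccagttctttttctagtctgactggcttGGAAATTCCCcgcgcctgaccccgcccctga
Tnfaip3, chr1:15543980-15544099, minus strand: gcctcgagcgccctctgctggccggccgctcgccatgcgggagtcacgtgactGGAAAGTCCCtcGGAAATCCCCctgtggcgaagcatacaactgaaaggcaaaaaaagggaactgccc
Nfkb1, chr2:226805440-226805469, minus strand: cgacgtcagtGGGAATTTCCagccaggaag

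The decamer of Nfkb2 spans bases -20 to -11 from the start, and that of Nfkbia spans bases -31 to -22. Tnfaip3 holds 3 decamers, of which those at -67 to -58 and -55 to -46 are in the printed stretch and another lies at -170 to -161. The windows of Rela, Tnfrsf1a and Birc2 hold none. These are matches of letters and not measured binding, and no array value bears on them directly.

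The 9 arrays had equal trimmed mean signals, and no pair of them held identical values. Summed signals of cell type markers differed between them, and tumor 1 stood apart from the other tumors. The summed signal of 11 smooth muscle markers in tumors 1, 2 and 3 was 68.9%, 2.39% and 2.87% of the mean of normal bladder, and in ANTs 1, 2 and 3 it was 34.6%, 10.7% and 4.47%. The sum of 8 fibroblast markers was 77.9%, 9.19% and 19.7% in the tumors, and 64.5%, 54.4% and 23.4% in the ANTs. Of these 8 genes 0 passed in tumors, where the median was -2.26 and Fap (0.73) and Thy1 (0.65) had positive differences. In ANTs 3 fell and 0 rose. The sum of 12 myeloid cell and neutrophil markers was above normal on every array, at 204.5%, 272% and 373% in the tumors, and at 240.5%, 214% and 749.6% in the ANTs. The members of that list were not alike: 6 rose in tumors, led by the neutrophil genes S100a8 (6.52) and S100a9 (6.75), and Csf1r (-0.65), Cd163 (-1.05), Mrc1 (-1.10) and Adgre1 (-0.48) had negative differences that did not pass. Without S100a8 and S100a9, a choice made after the values were seen, the sum was 176%, 145% and 183% in the tumors, and 190%, 159% and 291% in the ANTs. Lymphocyte markers (13 genes) stood at 80.8% to 166% in tumors and at 189.9% to 259% in ANTs. Ptprc had the highest signal of this list on every array. In tumors 1 of the 13 genes rose, with a median of -0.21. In ANTs 2 rose, Ptprc (1.72) and Cd3d (at least 3.35-fold), with a median of 1.46. Cd4 (-1.27), Cd8a (-0.70) and Cd79b (-1.17) had negative differences in ANTs that did not pass. Cd79b was dim on all 9 arrays, Cd4 on 6 and Cd8a on 3. Among the others of the list, Cd3e, Cd8b and Gzmb were dim on 7 arrays, and Ms4a1 and Nkg7 on 8. Markers of urothelium (10 genes), which the label of the tissue implies, were present on all arrays, at 125% to 145% in tumors, 118% to 148% in ANTs and 97.0% to 103% in normal bladder. In tumors 3 of these 10 genes rose, the basal keratin genes Krt5 (3.58) and Krt14 (4.81) and Cdh1 (0.72). The umbrella cell genes Krt20 (-3.82) and Upk1a (-1.31) fell, and the median of the list was 0.02. Upk2 (-2.1), Upk1b (-0.17) and Upk3a (-0.15) had negative differences in tumors that did not pass. In ANTs 5 rose, Krt5 (3.72), Krt14 (4.65), Cdh1 (0.69), Grhl3 (0.55) and Epcam (0.4). Krt20 fell there (-1.7), and the median was 0.09. None of the smooth muscle, fibroblast, myeloid, lymphocyte or urothelial markers was listed at 0 on any array. The part of these marker signals in the differences below was not tested, and in bulk tissue fewer cells of a type and less RNA per cell cannot be told apart.

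Birc3 and Nfkb2 were higher in tumors than in normal bladder, and Birc3, Tnfaip3 and Nfkb1 were higher in ANTs than in normal bladder. The largest difference was that of Birc3, at 11.1-fold in tumors and 12.3-fold in ANTs. Rela and Birc2 had smaller differences that did not pass the test, and the difference of Xiap in tumors was -0.04 on the log2 scale. Between tumors and ANTs no gene of the group passed. By limma with Benjamini-Hochberg adjustment over all probe sets, 2 of the 11 probe sets rose in tumors, against 8.88% of all probe sets, and 3 rose in ANTs, against 8.65%. None of the 11 fell in either tissue, while 2818 of all 31042 probe sets fell in tumors and 3187 in ANTs. Among 11 probe sets, a count of 0 is close to these shares. At an unadjusted p under 0.05 there were 6 in tumors and 7 in ANTs, where 32.8% and 32.1% of all probe sets were under it in either direction. The 3 tumors lay above all 3 normal bladders in 7 probe sets (18.4% of all probe sets did so), and the 3 ANTs did in 6 (17.6% of all). The median difference of the 11 probe sets was 0.65 in tumors and 0.69 in ANTs, where that of all probe sets was -0.05 and -0.09. With 1 array left out, the passing probe sets numbered 6 without tumor 1, 2 without tumor 2, and 0 without tumor 3 or any normal bladder, and in ANTs 6 without ANT 1, 4 without ANT 2 or 3, 2 without normal bladder 1, and 1, which was Birc3, without normal bladder 2 or 3. Both comparisons use the same 3 normal bladders, so their values are not independent of each other.

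**Figure D1:**
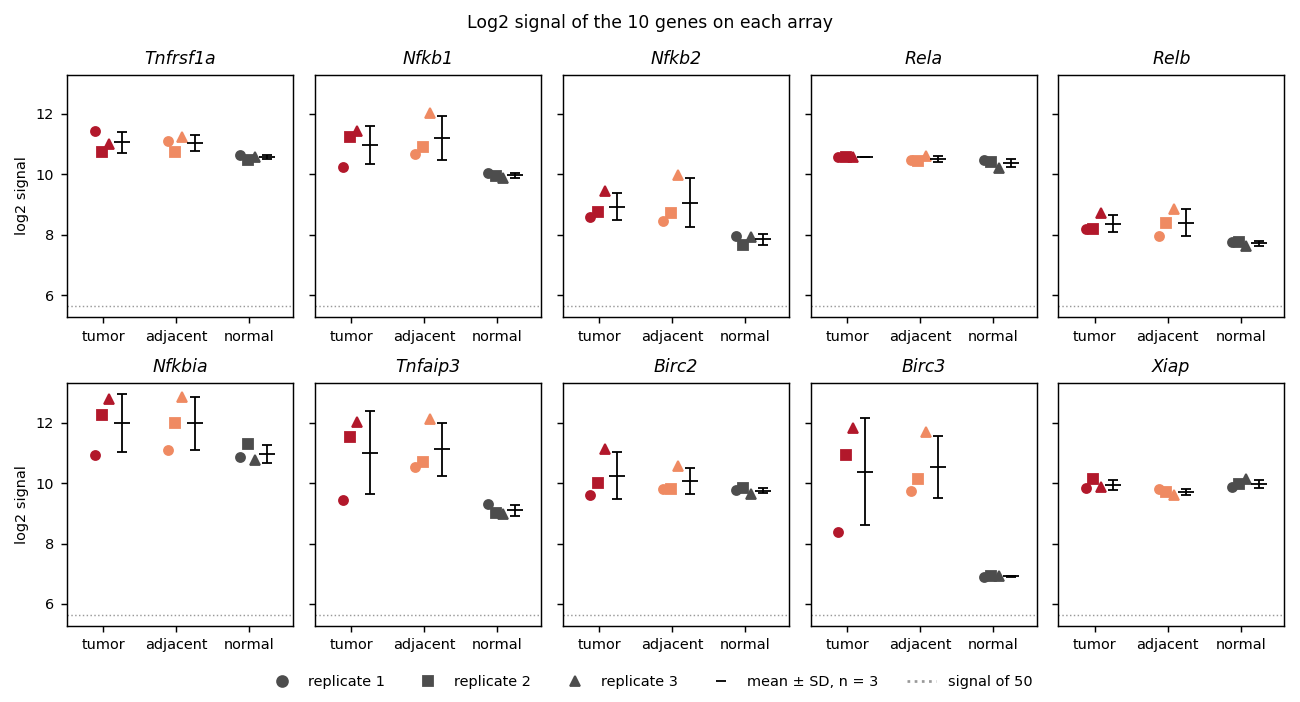
Log2 signal (y axis) of the 10 genes on each of the 9 arrays, with tumor, adjacent and normal tissue on the x axis. Symbols show the replicate number, bars the mean ± SD of 3 arrays and the dotted line a signal of 50; for Xiap the brighter probe set is shown. The 3 normal bladders of Birc3 lie at 6.89 to 6.93, below all tumors and ANTs, while those of Xiap lie among the tumors.

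Among the subunit genes, Nfkb2, which encodes the p100 precursor of the alternative pathway, had log2 signals of 8.60, 8.74 and 9.44 in the tumors and 8.46, 8.72 and 9.98 in the ANTs, against 7.96, 7.65 and 7.92 in normal bladder. All tumors and all ANTs lay above all normal bladders. The difference between tumors and normal bladder was 1.08 (SE 0.25, adjusted p = 0.027 from limma), a 2.12-fold higher signal with a 95% interval of 1.41 to 3.18. In ANTs it was 1.21 (SE 0.38), and this did not pass (adjusted p = 0.060). The call in tumors held without tumor 1 (adjusted p = 0.0063) and without tumor 2 (0.047). It was lost without tumor 3 (0.051) and without normal bladder 1 (0.081), 2 (0.104) or 3 (0.086). In ANTs, Nfkb2 passed without ANT 1 (0.025) and without ANT 3 (0.037).

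Nfkb1 encodes the p105 precursor from which the p50 subunit is made. Its log2 signals were 10.24, 11.23 and 11.43 in the tumors and 10.69, 10.90 and 12.02 in the ANTs, against 10.05, 9.95 and 9.89 in normal bladder. Tumor 1 lay just above the highest normal bladder, whereas tumors 2 and 3 and all ANTs were well clear of it. In ANTs the difference was 1.24 (SE 0.32, adjusted p = 0.032 from limma), or 2.36-fold (95% interval 1.42 to 3.92). In tumors it was 1.0 (SE 0.30), and at an adjusted p of 0.057 it did not pass. Without tumor 1 it was 1.37 (adjusted p = 0.00013). The call in ANTs was lost without normal bladder 1 (0.093), 2 (0.103) or 3 (0.111) and kept without each ANT.

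Relb, the partner of the Nfkb2 product, had log2 signals of 8.20, 8.20 and 8.71 in the tumors and 7.97, 8.39 and 8.85 in the ANTs, against 7.76, 7.76 and 7.62 in normal bladder. The groups did not overlap, yet the differences of 0.65 in tumors (95% interval 0.19 to 1.12, adjusted p = 0.061) and 0.69 in ANTs (0.11 to 1.26, adjusted p = 0.096) did not pass the limma test. Without tumor 1 or ANT 1 they did.

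Rela encodes the p65 subunit, which carries the activating domain of the classical dimer. Its log2 signals were 10.58, 10.56 and 10.58 in the tumors and 10.47, 10.45 and 10.62 in the ANTs, against 10.47, 10.41 and 10.22 in normal bladder. The tumors were nearly equal (SD 0.01, n = 3) and all lay above normal bladder, by 0.21 on average (95% interval -0.06 to 0.48, adjusted p = 0.250). The ANTs overlapped with normal bladder, at a difference of 0.15 (-0.15 to 0.45, adjusted p = 0.491). These intervals leave room for at most a 1.39-fold higher Rela signal in tumors and 1.36-fold in ANTs.

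Tnfaip3, which encodes the ubiquitin-editing enzyme A20 that switches receptor signals off, varied strongly between samples of tumor-bearing bladders. Its log2 signals were 9.44, 11.53 and 12.03 in the tumors and 10.52, 10.69 and 12.14 in the ANTs, against 9.32, 9.01 and 8.98 in normal bladder. Tumor 1 was at 126% of the mean of normal bladder, while tumors 2 and 3 were at 537% and 754%. The ANTs stood at 266%, 299% and 814% of that mean. In ANTs the difference was 2.02 (SE 0.39, adjusted p = 0.011 from limma), or 4.04-fold (95% interval 2.15 to 7.58). In tumors the difference of 1.90 was nearly as large, but with an SE of 0.61 it did not pass (adjusted p = 0.072). Without tumor 1 it was 2.68 (adjusted p = 4.9e-05). The call in ANTs was lost without normal bladder 2 (0.053) or 3 (0.054).

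Nfkbia, the gene of the inhibitor IkappaB-alpha, was likewise lowest in tumor 1 among the tumors and in ANT 1 among the ANTs. It had log2 signals of 10.92, 12.25 and 12.78 in the tumors and 11.11, 11.98 and 12.86 in the ANTs, against 10.85, 11.30 and 10.76 in normal bladder. Tumor 1 and ANT 1 lay below normal bladder 2, so the groups overlapped. The difference was 1.02 in tumors (95% interval -0.02 to 2.05, adjusted p = 0.159) and 1.02 in ANTs (0.10 to 1.93, adjusted p = 0.118), and neither passed. Without tumor 1 and without ANT 1 it did.

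The receptor gene Tnfrsf1a ranked its samples in another order. Its log2 signals were 11.42, 10.73 and 11.02 in the tumors and 11.11, 10.75 and 11.25 in the ANTs, against 10.63, 10.49 and 10.57 in normal bladder. Here tumor 1 was the highest tumor. All tumors and ANTs lay above normal bladder, with differences of 0.49 (95% interval 0.06 to 0.92, adjusted p = 0.107) and 0.47 (0.11 to 0.83, adjusted p = 0.073) that did not pass. It passed in tumors without tumor 2, and in ANTs without ANT 2.

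Birc3, which encodes the cellular IAP cIAP2, showed the largest difference of the 10 genes. Its log2 signals were 8.39, 10.93 and 11.81 in the tumors and 9.75, 10.14 and 11.70 in the ANTs, against 6.89, 6.91 and 6.93 in normal bladder. The normal bladders were nearly equal and all above the dim limit, and every tumor and ANT lay above them. Relative to the mean of normal bladder, the tumors stood at 279%, 1625% and 2986% and the ANTs at 714%, 938% and 2769%. The difference was 3.47 in tumors (SE 0.77, adjusted p = 0.025 from limma), which is 11.1-fold with a 95% interval of 3.13 to 39.1. In ANTs it was 3.62 (SE 0.45, adjusted p = 0.0022), which is 12.3-fold with an interval of 5.96 to 25.3. The adjusted p in ANTs lay between 0.00024 and 0.049 over the 17 settings run. In tumors the value without tumor 1 was 4.46 (2.2e-05), and the call was lost without tumor 2 (0.073), tumor 3 (0.066) or normal bladder 1 (0.086), 2 (0.088) or 3 (0.088).

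Birc2, which encodes cIAP1 and is the neighbour of Birc3 on chromosome 8 with 0 genes between them in the RefSeq table, gave smaller and less regular values. Its log2 signals were 9.62, 9.99 and 11.13 in the tumors and 9.82, 9.82 and 10.57 in the ANTs, against 9.78, 9.83 and 9.65 in normal bladder. Tumor 3 and ANT 3 were high, at 259% and 176% of the mean of normal bladder, and the other tumors and ANTs were at 91.2% to 118%. The differences of 0.49 in tumors (95% interval -0.34 to 1.33, adjusted p = 0.388) and 0.32 in ANTs (-0.19 to 0.82, adjusted p = 0.366) did not pass. Without tumor 3 and without ANT 3 they were 0.05 and 0.07. The difference between the effects on Birc3 and Birc2 was not tested.

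Xiap had log2 signals of 9.84, 10.12 and 9.86 in the tumors and 9.80, 9.72 and 9.61 in the ANTs, against 9.86, 9.97 and 10.12 in normal bladder, by its brighter probe set. The tumors overlapped with normal bladder, and the difference of -0.04 had a 95% interval of -0.36 to 0.28 (adjusted p = 0.874), that is 0.780-fold to 1.21-fold. Its sign turned when arrays were centred on their medians (0.16). All 3 ANTs lay below all 3 normal bladders, by 0.27 on average (-0.59 to 0.05), which did not pass (adjusted p = 0.221). The second probe set of Xiap read 4.75, 5.46 and 5.06 in the tumors and 5.17, 6.03 and 5.81 in the ANTs, against 5.27, 4.90 and 5.33 in normal bladder. Only ANTs 2 and 3 were above the dim limit there, and its differences were -0.07 in tumors and 0.51 in ANTs. The 2 probe sets thus gave opposite signs in ANTs, and neither passed.

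**Figure D2:**
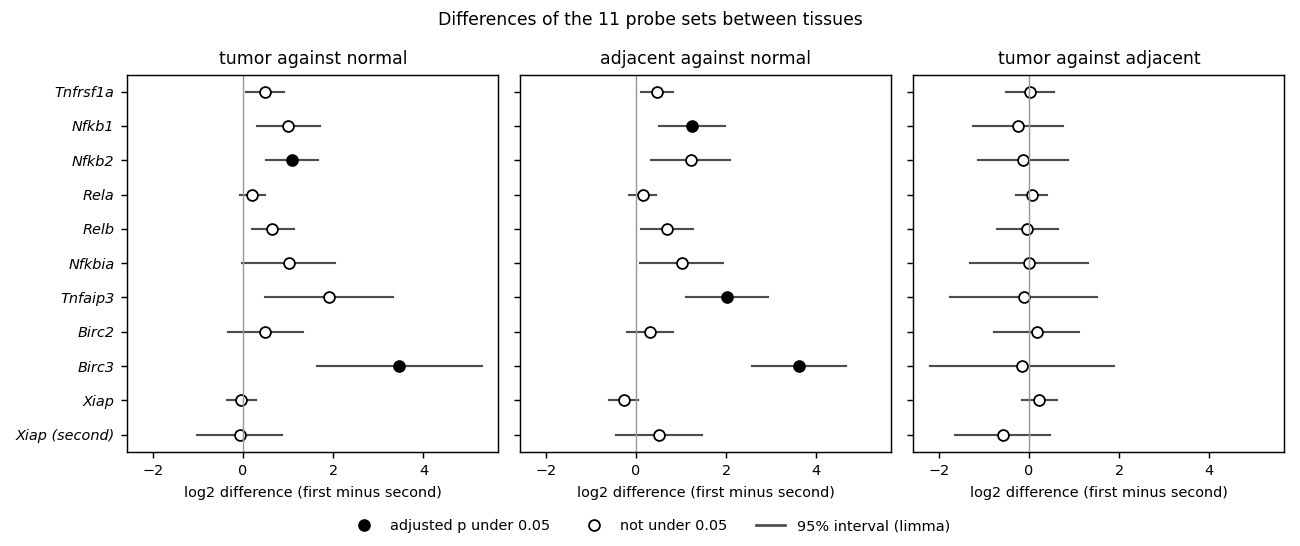
Log2 difference (x axis) of each of the 11 probe sets in tumors against normal bladder, ANTs against normal bladder and tumors against ANTs, with 95% intervals from limma. Filled points passed at an adjusted p under 0.05, which were Nfkb2 and Birc3 in tumors and Nfkb1, Tnfaip3 and Birc3 in ANTs.

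Tumors and ANTs were then set against each other, to ask whether any of the 10 genes told the tumor from the tissue beside it. None did by limma, with 0 of 11 probe sets under an adjusted p of 0.05, 0 of 11 under an unadjusted p of 0.05, and 0% of all 31042 probe sets called. At an unadjusted p under 0.05 there were 845 of all probe sets (2.72%). By the brightest probe set of each gene, the differences lay between -0.24 for Nfkb1 and 0.23 for Xiap, while the second probe set of Xiap, mostly dim, gave -0.58 (95% interval -1.63 to 0.47). The intervals of the variable genes were wide. For Birc3 the difference of -0.15 had a 95% interval of -2.19 to 1.88, and for Tnfaip3 that of -0.12 had one of -1.74 to 1.51. For Rela the interval was -0.28 to 0.40 and for the brighter probe set of Xiap -0.16 to 0.62. That probe set was the only one of the 11 whose tumors all lay above all ANTs, as 4.14% of all probe sets did, and the groups overlapped in the second.

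Within the same-numbered tumor and ANT, Birc3 differed by -1.35, 0.79 and 0.11 for numbers 1, 2 and 3, and Tnfaip3 by -1.08, 0.84 and -0.11. Nfkb1 differed by -0.45, 0.33 and -0.59. For these genes tumor 1 was below ANT 1 and tumor 2 above ANT 2, so the same-numbered pairs did not share a direction. No label says that samples of the same number come from 1 rat. Xiap, by its brighter probe set, was higher in the tumor of all 3 pairs, by 0.05, 0.40 and 0.25, whereas its second probe set was lower in the tumor of all 3 pairs (-0.42, -0.56 and -0.75).

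Tumor 1 was the lowest tumor in 8 of the 10 genes, and tumor 3 the highest in 7. ANT 1 was the lowest ANT in 7 genes and ANT 3 the highest in 9. Tumor 1 and ANT 1 were also the samples of their groups with the highest sums of smooth muscle and fibroblast markers, and tumor 3 and ANT 3 those with the highest sums of myeloid markers. Without S100a8 and S100a9 the myeloid sum of tumor 1 (176%) was close to that of tumor 3 (183%), and tumor 2 was lowest (145%). In ANTs 1, 2 and 3 it was 190%, 159% and 291%. Whether these values have a part in the order was not tested. The SD among tumors exceeded that among normal bladders in 9 of 10 genes and the SD among ANTs did in 8. Over the 12117 probe sets with a mean log2 signal above 8, the same held for 79.5% in tumors and 82.3% in ANTs, so a larger spread in the tumor-bearing bladders was common to the arrays.

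**Figure D3:**
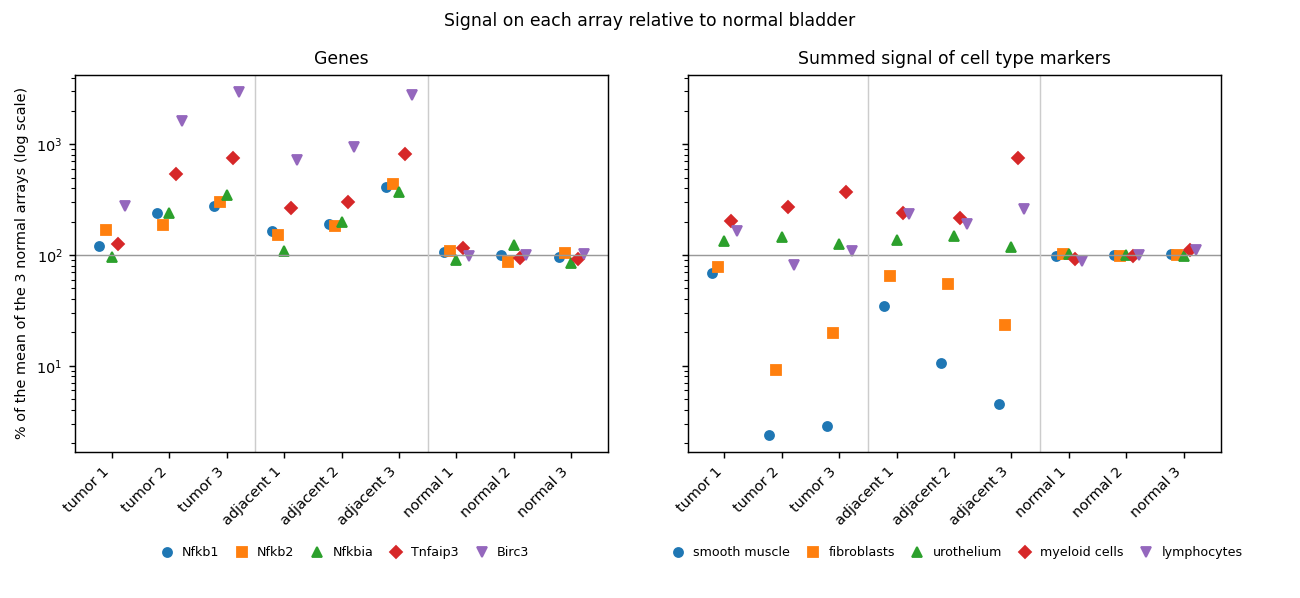
Signal on each array as a percentage of the mean of the 3 normal bladders (y axis, log scale), for 5 of the genes in the left panel and for the summed signal of 5 marker lists in the right panel. Tumor 1, with Birc3 at 279% and Tnfaip3 at 126%, kept 68.9% of the smooth muscle sum, whereas tumors 2 and 3 kept 2.39% and 2.87%.

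Other genes of the pathway were counted from 5 lists, which hold none of the 10 genes, with the brightest probe set standing for a gene. These lists too were chosen with earlier results of these data known, so their counts are a description only. Of 14217 genes, 13.6% were higher and 9.95% lower in tumors, and 13.3% were higher and 11.5% lower in ANTs. The median difference of all genes was 0.05 in tumors and 0.01 in ANTs. No gene of any list passed between tumors and ANTs.

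Of 33 genes listed here as targets of NF-kappaB, 16 rose and 0 fell in tumors, and 19 rose and 0 fell in ANTs. The median of the list was 1.51 in tumors and 2.32 in ANTs. Ccl20, a chemokine that attracts lymphocytes and dendritic cells, had log2 signals of 8.28, 9.13 and 11.47 in the tumors and 9.94, 10.23 and 11.74 in the ANTs, and was dim in normal bladder (2.36, 2.15 and 2.06). It was at least 15.8-fold higher in tumors (adjusted p = 0.0031 from limma) and at least 31.9-fold higher in ANTs. Il1a, the alarm cytokine interleukin-1 alpha of epithelial cells, had 10.20, 12.39 and 12.72 in the tumors and 11.63, 11.78 and 12.49 in the ANTs, and was likewise dim in normal bladder. For both genes tumor 1 was again the lowest tumor. Beside these targets, the sum of myeloid and neutrophil markers stood at 204.5% to 373% of normal in tumors and at 214% to 749.6% in ANTs, and at 145% to 183% and 159% to 291% without S100a8 and S100a9. Its part in the list was not tested.

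Of 18 other inhibitors, feedback genes and related genes, 7 rose and 0 fell in tumors, and also in ANTs 7 rose and 0 fell. Nfkbiz, a nuclear IkappaB protein that directs a subset of targets, had log2 signals of 10.64, 12.31 and 12.63 in the tumors and 11.89, 11.94 and 12.65 in the ANTs, against 9.10, 9.20 and 9.08 in normal bladder. The difference was 2.73 in tumors (adjusted p = 0.011 from limma) and 3.03 in ANTs (0.00039). Bcl3, a nuclear partner of the p50 and p52 subunits, was higher by 2.27 in tumors (adjusted p = 0.020) and by 2.94 in ANTs (0.0024).

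Of 14 ligands and receptors upstream, 4 rose and 2 fell in tumors, and 6 rose and 2 fell in ANTs. Tnf, the ligand of the Tnfrsf1a receptor, had log2 signals of 7.22, 7.96 and 9.67 in the tumors and 8.57, 8.75 and 9.62 in the ANTs, against 5.71, 5.35 and 5.03 in normal bladder. It was 7.57-fold higher in tumors (adjusted p = 0.019 from limma) and 12.2-fold higher in ANTs (0.00091), with 2 of the normal bladders dim. Tlr2, a receptor for bacterial lipoproteins, was 3.49-fold and 3.82-fold higher in tumors and ANTs. Both genes that fell did so in tumors and in ANTs. Tnfrsf11a, the receptor RANK, had a difference of -2.79 in tumors (adjusted p = 0.019) and -2.06 in ANTs (0.0063). It was dim in tumor 2 (4.76), tumor 3 (4.39) and ANT 2 (5.33). Tnfsf12, the ligand TWEAK, had a difference of -1.86 in tumors (adjusted p = 0.016) and -1.80 in ANTs (0.0063).

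Of 25 adaptors and kinases between receptor and inhibitor, 6 rose and 0 fell in tumors, and 10 rose and 1 fell in ANTs. The median of the list was 0.14 in tumors and 0.35 in ANTs, where that of all genes was 0.05 and 0.01. Myd88, the adaptor of Toll-like and interleukin-1 receptors, had log2 signals of 10.19, 10.38 and 10.18 in the tumors and 10.54, 10.30 and 10.86 in the ANTs, against 8.73, 8.75 and 8.68 in normal bladder. It was higher in tumors by 1.53 (adjusted p = 0.0017 from limma), with tumor 1 at the level of the other tumors. Tradd, the adaptor that binds the Tnfrsf1a product, was higher by 1.03 in tumors (adjusted p = 0.0076) and by 0.92 in ANTs (0.011).

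Of 18 other IAP genes, IAP antagonists, caspases and related death genes, 4 rose and 1 fell in tumors, and 6 rose and 0 fell in ANTs. Birc5, or survivin, an IAP family member of dividing cells, had log2 signals of 7.34, 8.23 and 8.09 in the tumors and 6.78, 7.42 and 8.42 in the ANTs, against 5.71, 5.23 and 6.0 in normal bladder. It was 4.73-fold higher in tumors (adjusted p = 0.0082 from limma) and 3.72-fold higher in ANTs (0.025), with normal bladder 2 dim. Bid, which links caspase-8 to mitochondria, was 3.26-fold higher in tumors (adjusted p = 0.020), and its difference of 1.61 in ANTs did not pass (0.123). Tnfsf10, the death ligand TRAIL, fell by 2.78 in tumors (adjusted p = 0.0099), with 6.03, 4.93 and 6.79 in the tumors against 8.52, 8.59 and 8.97 in normal bladder. In ANTs (6.03, 8.28 and 5.48) its difference of -2.10 did not pass (0.060), though all ANTs lay below all normal bladders. Tumor 2 and ANT 3 were dim for this gene.

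**Figure D4:**
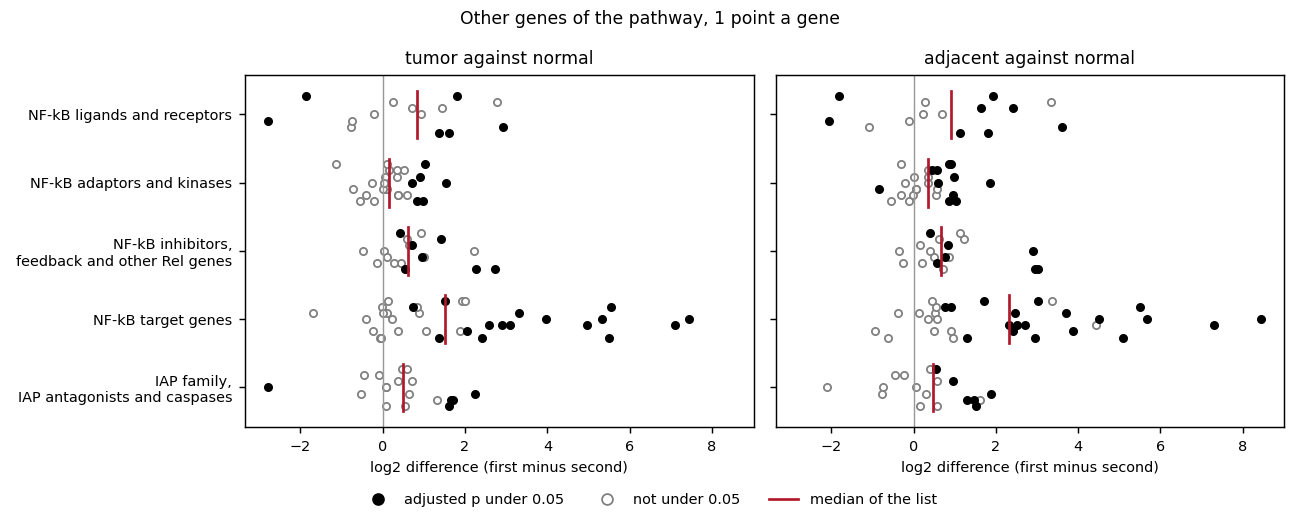
Log2 difference (x axis) of the measured genes of 5 lists in tumors against normal bladder and in ANTs against normal bladder, 1 point a gene, filled where the adjusted p was under 0.05. Red lines mark list medians, the highest being that of the target genes at 1.51 in tumors and 2.32 in ANTs.

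The genes most alike in pattern were sought for the 4 genes that passed in a comparison, by Pearson's r over the 9 arrays among 9698 genes above a signal of 50 on all arrays. The arrays share 3 normal bladders and rats. Over all probe sets, normal bladders correlated by 0.940 to 0.946 with each other. With tumors their highest value was 0.910, and with ANTs 0.899. The values of r for single genes therefore describe a ranking only. For Birc3 the most alike genes were C3, complement component 3 (r = 0.993), and Donson (0.993), a gene of DNA replication. For Tnfaip3 they were C3 again (0.986) and Hace1 (0.984), a ubiquitin ligase gene. For Nfkb1 they were Fam177a1 (0.984) and the chemokine gene Ccl17 (0.982), and for Nfkb2 they were Nop16 (0.983), a nucleolar protein gene, and Dusp7 (0.982), a phosphatase gene.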

How the data were processed

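RNA of 9 rat bladder samples (3 tumors, 3 ANTs, 3 normal bladders) was labeled by the authors with the 3' IVT Express kit and hybridized to Affymetrix arrays, scanned with Command Console and normalized by MAS5 in Gene Spring. The deposited values are log2 signals, and a linear mean trimmed by 2% on both sides came to about 500.2 on all arrays. No further scaling was applied, and read depth does not apply: the number of arrays limits the precision. Of 31099 probe sets, 57 array controls were left out. The platform annotation named 1 gene for 20826 probe sets, several for 436 and none for 9780.

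Groups were taken from the sample titles, and no batch or scan date was given in the sources used here. A separate fit was made for every pair of groups with limma 3.58.1 in R 4.3.3 (lmFit, eBayes with a mean-variance trend), with Benjamini-Hochberg adjustment over 31042 probe sets, a threshold of 0.05 and 95% intervals from the moderated statistic. The script was tested on simulated data. Where all arrays of the lower group were dim (signal under 50), the fold was taken against 50 and written as at least that size. Tumors and ANTs came from the same rats by the series design, though no label says that a number is a rat. Deviations from the group means correlated by 0.24, 0.044 and 0.137 between same-numbered tumors and ANTs 1, 2 and 3. Between differently numbered ones the values lay between -0.212 and 0.106. The highest of these, for tumor 2 and ANT 3, was above that of tumor 2 and ANT 2, so the numbers are not shown to be rats. The members and the gene lists were chosen with earlier results of these data known. By rule, the text names all members, from each wider list the 2 largest rises and falls in tumors that passed without overlap, and for each member that passed the 2 genes most alike in pattern. The marker lists not described in the text moved as follows in tumors and ANTs: of 6 endothelial genes 2 and 3 rose, of 8 skeletal muscle genes 3 and 4 fell, of 5 adipocyte genes 0 and 0 changed, and of 6 Schwann cell and neuron genes 3 and 5 fell and 1 and 1 rose. Alternatives were centring on array medians, quantile normalization, leaving out probe sets up to the 40th percentile of mean signal, log2 after adding 50, no variance trend, 1 fit of the 3 groups together, a replicate block, leaving out each array, the methods' t-test, and averaging the probe sets of a gene.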

Additional observations from a re-analysis of the deposited data

How the results depend on the processing

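The number of passing probe sets among the 11 moved with the processing. In tumors against normal bladder it was 2, and it became 5 with arrays centred on their medians, 4 with the filter on dim probe sets, 1 in a fit of all 9 arrays, and 0 without a variance trend or with the methods' t-test after adjustment. It lay between 0 and 6 with 1 array left out. In ANTs against normal bladder it was 3, and it became 6 with centring, and 1 without a trend, in the fit of all 9 arrays and with the adjusted t-test, and lay between 1 and 6 with 1 array left out. Over all probe sets, 5574 in tumors became 2376 without a trend, 3705 with the replicate block, 1764 with the adjusted t-test and 1453 to 9216 with an array left out. In ANTs, 5873 became 3414 without a trend, 2394 with the adjusted t-test, and 2691 to 7198 with an array left out. Between tumors and ANTs the count was 0, and the methods' unadjusted t-test with a 2-fold limit gave 395 of all probe sets. The causes were not tested. The replicate block changed no call of a single member (2, 3 and 0 passed). Against normal bladder that block joins samples of different rats by their number alone, so it has no basis in the design there. Array medians were lower by 0.20 on the log2 scale in tumors and in ANTs (-0.20 both), so that centring shifted the split of calls to 3634 higher and 2195 lower in tumors, where it was 2756 and 2818, and to 4356 and 2557 in ANTs, where it was 2686 and 3187. Directions turned only for differences that did not pass. Xiap in tumors became 0.16 with centring (0.17 and 0.13 for its second probe set with quantile normalization and centring), and with arrays left out lay at -0.13 to 0.03 (-0.26 to 0.10 for the second). With the mean of both probe sets Xiap was 0.12 in ANTs against normal bladder and -0.17 in tumors against ANTs. With arrays left out, tumors against ANTs ranged from -0.44 to 0.53 for Nfkbia, -0.16 to 0.19 for Tnfrsf1a, -0.49 to 0.17 for Nfkb1, -0.63 to 0.66 for Tnfaip3, -0.27 to 0.49 for Birc2, -0.87 to 0.84 for Birc3, -0.43 to 0.34 for Nfkb2 and -0.25 to 0.19 for Relb.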
